A study of Mus musculus with 2 samples.

Results

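Btbd9, Glo1, Dnah8 and Glp1r are neighbouring genes on mouse chromosome 17, and they make up 4 of the 32285 genes in the deposited tables. They were chosen by position and because earlier work on these same libraries had found them higher in the knockout than in the wild type across neurons and glia. Every ratio between the libraries given below therefore describes how the genes were chosen and supports nothing further. Btbd9 encodes a BTB domain protein thought to serve as an adaptor of Cul3 ubiquitin ligases and is known from restless legs syndrome and iron handling. Glo1 encodes glyoxalase I, the first enzyme of the glutathione-dependent removal of methylglyoxal, a toxic by-product of glycolysis. Dnah8 encodes an axonemal dynein heavy chain, a motor of cilia and sperm tails. Glp1r encodes the receptor for glucagon-like peptide-1, a class B receptor that couples to Gs and cAMP and is known in the brain for restraining feeding.

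The mice were 6 to 8 weeks old, and RNA of single amygdala nuclei was tagged in droplets with a 5' gene expression kit from 10x Genomics. There were 2 libraries, 1 labelled WT and 1 labelled Sema6d-/- (KO), and both carry the strain label C57BL6/J. Sema6d is a transmembrane semaphorin, and the series set out to compare gene expression between these genotypes in single cells. The number of animals per library, their sex, the origin of the allele and the deleted part of Sema6d could not be read from the labels. With 1 library per genotype no difference can be tested, and genotype, animal, dissection and library preparation cannot be told apart. Bracketed ranges are exact 95% intervals for counting error only.

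After filtering, 10369 WT nuclei held 79305700 UMIs, with a median of 7196 per nucleus, and 7911 KO nuclei held 56736373 UMIs, with a median of 6418. A UMI is 1 counted RNA molecule, and CPM is UMIs per 1000000 UMIs of the same class and library. The libraries shared 128 barcodes. Sema6d itself had a level of 632 CPM in the WT library and 686 CPM in the KO library, so its summed count does not separate the libraries as labelled, and WT and KO below mean the libraries so labelled. Whether the deleted part lies where the 5' tags are counted is not given. The median share of mitochondrially encoded UMIs in neurons was 0.66% in WT and 0.28% in KO. In neurons 11 microglial markers summed to 45.0 CPM in the WT library and 65.4 CPM in the KO library, while 10 astrocyte markers summed to 303 and 305 CPM. Also higher in KO neurons were the sums of 7 fibroblast markers (4.96 and 8.18 CPM), 9 endothelial markers (5.24 and 8.90 CPM), 9 mural markers (8.45 and 11.2 CPM) and 7 ependymal markers (18.4 and 22.1 CPM). No marker of these lists was at 0 in both libraries. The part of these differences in the results below was not tested.

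In the GENCODE annotation of mm10, Btbd9 (ENSMUSG00000062202) lies on the minus strand at chr17:30215524-30576488. Glo1 (ENSMUSG00000024026) follows on the minus strand at chr17:30584936-30626871. Dnah8 (ENSMUSG00000033826) lies on the plus strand at chr17:30624354-30877365, and Glp1r (ENSMUSG00000024027) on the plus strand at chr17:30901817-30940791. In this annotation Glo1 and Dnah8 run in opposite directions and overlap by 2518 bases. UMIs from that stretch cannot be assigned to 1 of them without strand, and the use of strand in counting is not given. RefSeq also lists a Glo1 pseudogene, Glo1-ps, on another chromosome, and how reads shared with it were counted is not given. The stretch is known for a duplication that includes Glo1 and differs among laboratory mouse strains. DNA copy number was not analysed here.

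The 250 bases before the RefSeq start of 3 of the genes are shown because the kit counts tags near transcript starts and because these genes were all higher in the KO library. They are RefSeq sequences of build GRCm38.p6, written from 5' to 3' on each gene's own strand. The Glo1 window is chr17:30612660-30612909 on the minus strand, the Dnah8 window chr17:30626686-30626935 on the plus strand, and the Glp1r window chr17:30901617-30901866 on the plus strand. The RefSeq starts differ from the GENCODE ones. The Glo1 and Dnah8 windows lie wholly within their GENCODE genes, and the Glp1r window ends within its own. By these RefSeq starts Glo1 and Dnah8 do not overlap. Btbd9 is named only. Capitals mark matches, on either strand, to the motifs searched.
Glo1: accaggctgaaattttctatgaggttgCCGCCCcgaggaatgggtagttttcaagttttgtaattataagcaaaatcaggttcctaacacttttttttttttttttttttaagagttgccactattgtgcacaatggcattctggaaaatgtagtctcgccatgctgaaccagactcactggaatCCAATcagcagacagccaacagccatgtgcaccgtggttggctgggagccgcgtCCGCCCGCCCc
Dnah8: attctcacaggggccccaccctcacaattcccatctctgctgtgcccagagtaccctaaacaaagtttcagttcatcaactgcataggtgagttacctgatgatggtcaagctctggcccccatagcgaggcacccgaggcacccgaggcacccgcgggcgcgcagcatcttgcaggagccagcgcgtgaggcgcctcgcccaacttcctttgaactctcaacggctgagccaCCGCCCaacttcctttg
Glp1r: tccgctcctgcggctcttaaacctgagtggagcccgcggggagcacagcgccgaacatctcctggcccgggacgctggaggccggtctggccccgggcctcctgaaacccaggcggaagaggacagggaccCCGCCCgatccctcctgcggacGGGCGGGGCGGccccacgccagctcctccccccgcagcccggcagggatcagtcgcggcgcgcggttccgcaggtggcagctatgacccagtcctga

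The motifs were the GC box GGGCGG, the CCAAT box, the TATA box TATAAA, the antioxidant response element core TGACNNNGC and the cAMP response element TGACGTCA. The Glo1 window held 3 GC boxes, the last 2 of them overlapping, and 1 CCAAT box 65 bases before the start. Dnah8 had 1 GC box, 17 bases before its start, and Glp1r had 3, of which 2 overlap. None of the 3 windows held the other motifs. Of 32851 promoters of this length, 32.7% held a GC box, 33.8% a CCAAT box, 12.4% a TATA box, 10.2% the antioxidant core and 1.55% the cAMP element. The GC content was 46.4% for Glo1, 59.2% for Dnah8 and 73.2% for Glp1r. A match is a description of the letters and shows no binding.

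All 4 genes were higher in the KO library over all nuclei. Btbd9 had 19314 UMIs (244 CPM) in WT and 27754 UMIs (489 CPM) in KO, a log2 ratio of 1.01 (0.98 to 1.03). Glo1 had 1014 UMIs (12.8 CPM) and 2293 UMIs (40.4 CPM), a log2 ratio of 1.66 (1.55 to 1.77). The rarer pair differed more between the libraries. Dnah8 rested on 28 UMIs in WT and 140 in KO, a log2 ratio of 2.81 (2.21 to 3.45). Glp1r had 56 and 547 UMIs, a log2 ratio of 3.77 (3.37 to 4.19). Of 16196 genes with at least 100 UMIs over both libraries, 7.61% were at least 1.5-fold higher in KO, as all 4 of these genes were. In neurons that share was 4.36%, and again all 4 genes were past it. There the log2 ratio was 1.03 for Btbd9, 1.55 for Glo1, 2.61 for Dnah8 and 3.92 for Glp1r. The number of genes with a ratio as high or higher in neurons, the gene itself included, was 92 for Btbd9, 34 for Glo1, 13 for Dnah8 and 6 for Glp1r, of 15378 genes. The median ratio of those genes was 0.04, with 5th and 95th percentiles of -0.42 and 0.55.

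**Figure D1:**
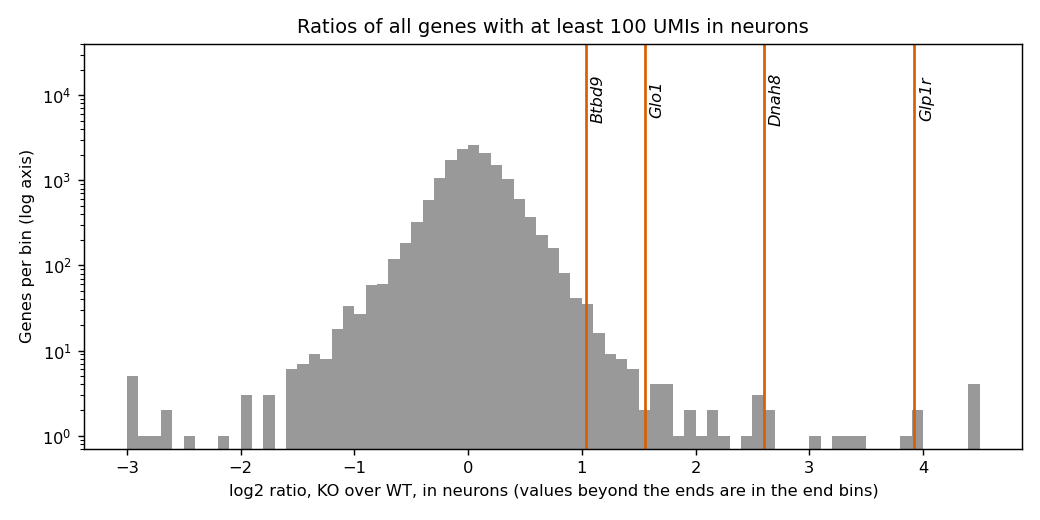
Histogram of the log2 ratio, KO over WT, of 15378 genes in neurons (x axis, bins of 0.1) against the number of genes per bin (y axis, log scale). Vertical lines mark Btbd9 at 1.03, Glo1 at 1.55, Dnah8 at 2.61 and Glp1r at 3.92, all above the 95th percentile of 0.55.

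The adaptor gene Btbd9 was present in every class of nuclei and was higher in KO in each class compared. Excitatory neurons had 366 CPM in WT and 705 CPM in KO, a log2 ratio of 0.95 (0.90 to 0.996). Inhibitory neurons had 209 and 428 CPM, a ratio of 1.03 (0.99 to 1.07). Within each library the excitatory level was above the inhibitory one, with counting intervals that did not overlap. Astrocytes, at 173 and 346 CPM, gave a log2 ratio of 0.997 (0.82 to 1.18). In oligodendrocytes Btbd9 stood at 148 and 273 CPM, and in their precursors at 223 and 402 CPM, with log2 ratios of 0.88 and 0.85. Microglia had the highest WT level of the classes, 489 CPM from 82 UMIs, and 674 CPM in KO. Their log2 ratio, 0.46 (0.10 to 0.84), was the lowest of the classes, and its interval did not reach the neuronal value of 1.03. The microglial interval overlapped those of the other glial classes. When each nucleus was classed by its own markers, microglia gave 0.73, the highest of 11 alternatives. The lowest was 0.38, with 1000 UMIs drawn at random from each nucleus. The order of the WT levels from microglia down was excitatory neurons, precursors, inhibitory neurons, astrocytes and oligodendrocytes. The interval of precursors overlapped those of inhibitory neurons and astrocytes, and those of astrocytes and oligodendrocytes overlapped each other.

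Glyoxalase I RNA followed another order, with each glial class above both neuron classes in both libraries. In WT the intervals of precursors and microglia still overlapped those of both neuron classes. Excitatory neurons had 10.0 CPM of Glo1 in WT and 28.0 CPM in KO, a log2 ratio of 1.49 (1.21 to 1.77). Inhibitory neurons had 12.4 and 36.6 CPM, a ratio of 1.57 (1.42 to 1.71). The glial WT values rest on 5 to 75 UMIs. Astrocytes had 30.1 CPM in WT and 87.2 CPM in KO, a log2 ratio of 1.53 (1.13 to 1.95). In oligodendrocytes Glo1 stood at 20.4 CPM (31 UMIs) and 94.5 CPM (234 UMIs), a ratio of 2.21 (1.67 to 2.80). That interval overlapped those of both neuron classes and of the other glial classes. Precursors had 12 and 49 UMIs, a log2 ratio of 1.85 (0.92 to 2.90), and microglia had 5 and 35 UMIs, a ratio of 1.67 (0.31 to 3.38). The glial WT intervals overlapped one another, so their order is not resolved.

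The share of genes with at least 100 UMIs that were at least 1.5-fold higher in KO was 3.9% for excitatory and 4.09% for inhibitory neurons, 3.51% for astrocytes, 5.34% for oligodendrocytes, 3.24% for their precursors and 6.88% for microglia. Btbd9 was past 1.5-fold in 5 of those 6 classes, all but microglia at 1.38-fold. Glo1 was past it in the 4 classes where it had 100 UMIs. Precursors and microglia had fewer, and their folds were 3.61 and 3.17.

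The dynein gene Dnah8 was rare in both libraries. Excitatory neurons held 2 UMIs in WT and 21 in KO, a log2 ratio of 3.79 (1.76 to 6.93), and inhibitory neurons 13 and 48, a ratio of 2.62 (1.71 to 3.63). Oligodendrocytes had the highest KO level of the classes compared, 13.3 CPM from 33 UMIs, against 1.97 CPM from 3 UMIs in WT, a log2 ratio of 2.75 (1.08 to 5.10). The interval of that KO level, 9.17 to 18.7 CPM, lay above those of both neuron classes. Astrocytes had 0 and 2 UMIs. Precursors and microglia had none in either library, and in WT microglia a count of 0 still allows up to 22.0 CPM by the exact interval.

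For the receptor gene Glp1r, neurons together had 0.71 CPM in WT, within the interval of WT astrocytes (0.80 CPM from 2 UMIs), and 10.8 CPM in KO, above that of KO astrocytes (1.08 CPM from 2 UMIs). Excitatory neurons had 2 UMIs in WT and 58 in KO, a log2 ratio of 5.26 (3.34 to 8.34), or 4.36 with doublets kept. Inhibitory neurons had 33 UMIs (0.66 CPM) and 368 UMIs (12.3 CPM), a ratio of 4.22 (3.70 to 4.78). With clusters at resolution 0.5 that ratio was 5.10, and after thinning, drawing 1000 UMIs at random from each nucleus, it was 3.67. The glial counts were near 0. Oligodendrocytes had 0 and 6 UMIs, precursors 0 and 1, and microglia 0 and 2.

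**Figure D2:**
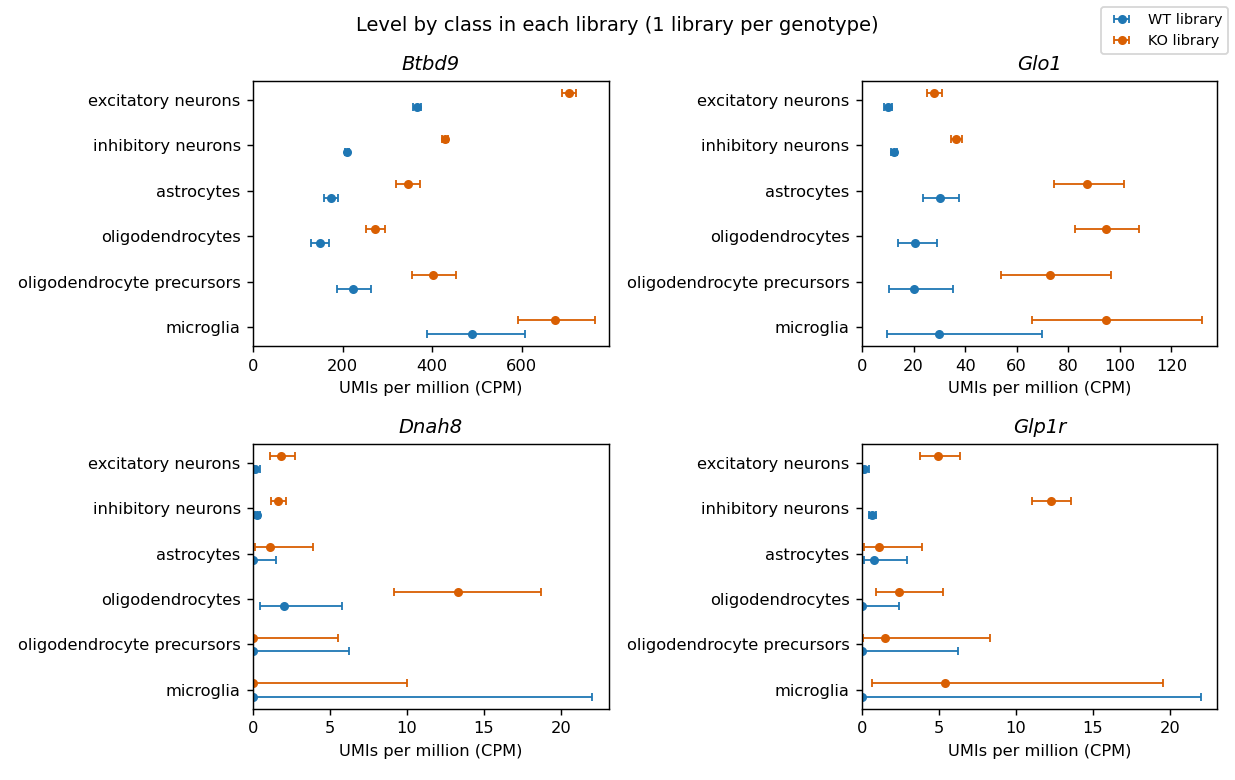
Level in CPM (x axis, linear, a separate range for each gene) of Btbd9, Glo1, Dnah8 and Glp1r in 6 classes of nuclei (y axis) in the WT and KO libraries. Points are the class totals and bars exact 95% Poisson intervals; the KO point of Btbd9 and of Glo1 is to the right of the WT point in each class.

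The difference was spread over many nuclei for the genes with enough UMIs. In neurons, 24.6% of WT nuclei and 7.86% of KO nuclei had no Btbd9 UMI, while 12.95% and 39.2% had 5 or more. The highest count in 1 nucleus was 28 in WT and 90 in KO, both in excitatory neurons. A Glo1 UMI was found in 9.69% of WT neurons and 26.5% of KO neurons. Among the nuclei with any, the mean was 1.06 Glo1 UMIs in WT and 1.23 in KO. Median depth in neurons was 7949 UMIs in WT and 8493 in KO, so each nucleus was also thinned to 1000 UMIs. This left out 8 WT and 6 KO neurons. The thinned share with a Btbd9 UMI was 19.9% in WT and 36.8% in KO, that for Glo1 was 1.51% and 3.60%, and that for Glp1r 0.11% and 1.29%. As background for Glp1r, no thinned astrocyte of either library had a UMI, which allows up to 0.41% in WT and 0.55% in KO by the exact interval. Before thinning, 0.22% of WT and 0.30% of KO astrocytes had one, at median depths of 2659.5 and 2755.5 UMIs, against 0.52% and 7.58% of neurons.

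Neuron clusters were compared where each library held at least 50 nuclei, which left 19. They are called by number and by the subtype markers that led them. Btbd9 was higher in KO in 19 of 19, and every interval lay above 0. The lowest ratio was 0.80 (0.61 to 0.996) in cluster 14, led by Drd2 and Gpr6, and the median was 0.95. The highest was 1.32 (1.22 to 1.42) in cluster 4, led by Tshz1 and Foxp2, with Btbd9 levels of 272 CPM (WT) and 680.4 CPM (KO). The interval of cluster 4 overlapped that of only 1 other cluster, cluster 25, among the 19. After thinning cluster 4 was again the highest at 1.52, but the lowest was cluster 23, at 0.22 in place of 0.95, and cluster 14 gave 1.23. Levels ran from 144 CPM in cluster 3 (Drd2, Adora2a) to 434 CPM in cluster 22 (Ntng2, Neurod6) in WT. In KO they ran from 275 CPM in cluster 9 (Moxd1, Sst) to 789 CPM in cluster 7 (Slc17a7, Rora). Clusters 0, 3, 11 and 14, led by medium spiny markers, were among the lowest for Btbd9 in both libraries. They had 183, 144, 209 and 205 CPM in WT and 347, 286, 385 and 357 CPM in KO. Cluster 25 (Isl1, Tac1), also led by such markers, was not, at 291 and 592 CPM.

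Glo1 was also higher in KO in 19 of 19 clusters, and 18 intervals lay above 0. After thinning to 1000 UMIs it was lower in KO in cluster 14 (-0.28) and cluster 23 (-0.78), and near 0 in cluster 22 (0.10). Its lowest ratio was 0.63 (-0.15 to 1.43) in cluster 22, from 25 and 35 UMIs, and its highest 1.90 (0.83 to 3.10) in cluster 21 (Vip, Adarb2), from 10 and 30 UMIs. The median was 1.59, and 18 of the 19 intervals held the value of all neurons. Cluster 4, where Btbd9 differed most, gave 1.62 (1.23 to 2.03) for Glo1. Cluster 22 had the highest WT level of Glo1, 21.7 CPM, and cluster 4 the highest KO level, 50.8 CPM. Cluster 7 was the lowest in both libraries, at 6.52 and 20.2 CPM. Its level of Btbd9 was among the highest. Dnah8 could be given a ratio in 6 clusters, from 1.72 in cluster 0 to 3.27 in cluster 12 (Slc17a7, Rspo2). All but cluster 0 passed the floor of 3 UMIs only through the KO library, so their shared direction is not read as a result. Of the 6 intervals, 2 lay above 0. In 4 further clusters only a bound could be set, and 9 had no ratio, being at the floor.

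**Figure D3:**
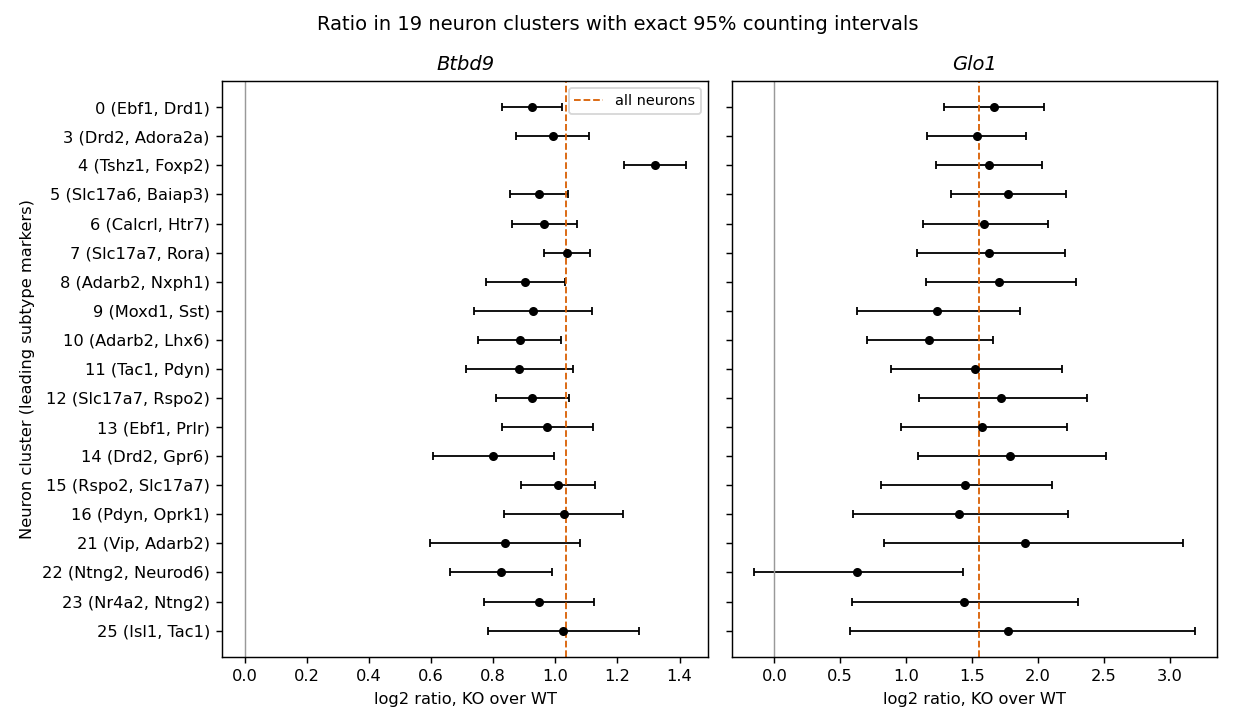
Log2 ratio, KO over WT, of Btbd9 (left) and Glo1 (right) in 19 neuron clusters (y axis, with their leading subtype markers). Bars are exact 95% counting intervals and the dashed line is the value of all neurons; cluster 4 stands to the right for Btbd9, and cluster 22 is the only Glo1 interval that reaches 0.

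Glp1r was the most uneven of the 4 genes among neurons. Cluster 4 held 4 Glp1r UMIs in WT (0.77 CPM) and 205 in KO (73.4 CPM), a log2 ratio of 6.58 (5.20 to 8.47). A UMI was found in 0.45% of its 892 WT nuclei and in 28.4% of its 490 KO nuclei. After thinning to 1000 UMIs the shares were 0%, which allows up to 0.41%, and 5.71%. Of the subtype lists, that of intercalated neurons scored highest in this cluster. These are small GABA neurons known to lie between the basolateral and central amygdala. Cluster 4 held 9.68% of KO neurons and 39.9% of their Glp1r UMIs. In WT it held 10.8% of neurons and 7.84% of their 51 Glp1r UMIs. At a finer resolution, 1 sub-cluster with 597 WT and 319 KO nuclei took 4 and 197 of these UMIs, and 0.67% and 41.7% of its nuclei had one.

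Other clusters had smaller Glp1r counts. Cluster 13 (Ebf1, Prlr) had 8 UMIs in WT (3.48 CPM) and 61 in KO (33.8 CPM), a log2 ratio of 3.28 (2.21 to 4.55). Cluster 5 (Slc17a6, Baiap3), which could not be given a class, had 5 and 75 UMIs, a ratio of 3.82 (2.53 to 5.48). Cluster 3 (Drd2, Adora2a) had 6 and 5 UMIs, a ratio of 0.82 (-1.23 to 2.80). The interval of cluster 4 did not overlap those of clusters 3, 6 (1.05 to 3.61), 8 (1.10 to 4.23) and 13. It did overlap those of clusters 5, 0 (1.74 to 9.99), 9, 12 and 15 (1.46 to 9.60). Clusters 0, 9, 12 and 15 had 1 WT UMI each and passed the floor of 3 UMIs only through the KO library. Their direction is therefore not read as a result. In 8 clusters WT had no Glp1r UMI and only a bound could be set. The largest was a log2 ratio of 3.27 in cluster 7, from 22 KO UMIs with the WT count set to a floor of 3 UMIs for the cluster. The highest WT level among the compared clusters was that of cluster 13.

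To see how far along the chromosome the difference ran, all genes that start within 1 Mb of the span from Btbd9 to Glp1r were measured in neurons. The 11 genes that start in the span include the 4 chosen for being higher in KO, and several of the others reach a usable count only through the KO library, so no count over the span is read as a result. AC165962.1 was the only one of those others with at least 100 UMIs in WT neurons. The flanks were not chosen by their values. Among the 13 genes before the span with at least 100 UMIs, 0 were at least 1.5-fold higher and 1 was at least 1.5-fold lower, with a median of 0.01, or -0.05 with TMM scaling. Among the 13 after it, 1 was higher, 0 were lower, and the median was 0.12. With a minimum of 20 UMIs, 2 were higher and 2 lower of 20 genes before the span, and 1 was higher and 2 were lower of 16 genes after it. Over all genes in neurons 4.36% were that much higher and 2.52% that much lower.

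Of the 6 nearest protein-coding genes outside with enough UMIs, 3 on each side, only Rsph1 was at least 1.5-fold higher. Zfand3, a zinc finger gene that ends just before Btbd9 (chr17:30004733-30210828), had a log2 ratio of -0.13. Mdga1, which encodes a cell surface protein of synapses, had 0.05 and Ccdc167 had 0.29. After Glp1r the nearest protein-coding gene with enough UMIs was Abcg1, a sterol transporter (chr17:31057675-31117988), at -0.16. Rsph1, a radial spoke gene of cilia, followed at 0.82 (0.53 to 1.12) and Slc37a1 at 0.04. Further flanking genes with at least 100 UMIs and a ratio past 0.5 in either direction were Ppil1 at -0.89, BC004004 at 0.52 and Sik1, a salt-inducible kinase, at -0.56. Of the flanking genes with fewer UMIs, Tbc1d22bos, an antisense gene before the span, stood above Btbd9 at 1.42 (0.63 to 2.24) from 22 and 39 UMIs, and AC151294.1 had 0.70 (0.03 to 1.38) from 38 and 41. After the span AC166172.1 had -1.05 and AC166172.3 had -0.71, with intervals that held 0. The 3 genes between Glp1r and Abcg1 had too few UMIs to place, Umodl1 for example having 10 over both libraries.

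**Figure D4:**
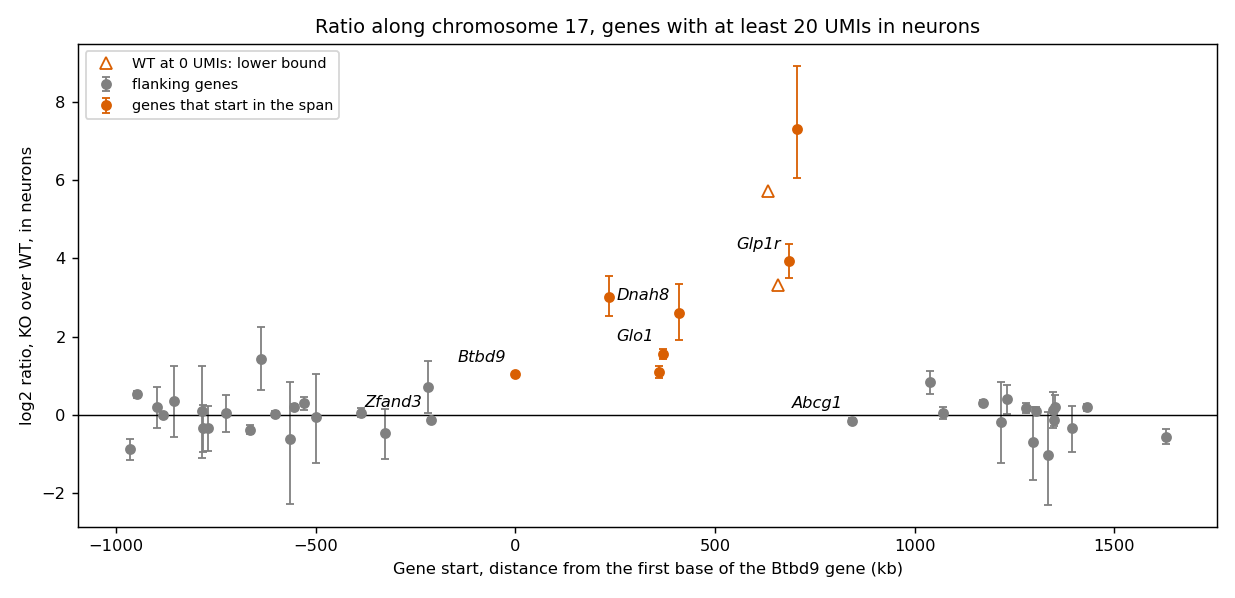
Log2 ratio, KO over WT, in neurons (y axis) against the distance of each gene's first base from that of Btbd9 in kb (x axis), for genes with at least 20 UMIs. Filled points carry exact 95% intervals, open triangles are lower bounds for genes at 0 UMIs in WT; the genes of the span (orange) lie at or above 1.03. Zfand3 and Abcg1 on either side lie at -0.13 and -0.16, and Tbc1d22bos, further out before the span, at 1.42.

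The other genes that start in the span are unnamed transcripts, several of them antisense to the 4 genes, and they were examined after the values of the 4 genes had been seen. AC125544.1, on the plus strand inside Btbd9, had 40 UMIs in WT neurons and 216 in KO neurons, a log2 ratio of 3.02 (2.53 to 3.55). In cluster 4 it had 1 and 97 UMIs, a ratio of 7.50 (4.99 to 12.82), and in cluster 13 it had 0 and 25. In clusters 0 and 3 it had 3 and 2, and 6 and 3 UMIs. Its KO level was thus highest in the 2 clusters where Glp1r was highest. AC165962.1, which overlaps the start of Btbd9 by 189 bases and runs the other way, had 538 and 759 UMIs, a log2 ratio of 1.09 (0.93 to 1.25), close to that of Btbd9.

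Transcripts antisense to Dnah8 and Glp1r were almost absent from WT. AC166166.1, antisense to Dnah8, had 0 UMIs in WT neurons and 105 in KO neurons. That is 52.7-fold with the WT count set to a floor of 3 UMIs over all neurons. By the exact intervals the level was up to 0.0515 CPM in WT and 1.81 to 2.67 CPM in KO. AC165951.2, also antisense to Dnah8, had 0 and 20 UMIs. AC165951.1, on the minus strand, overlaps Glp1r by 20454 bases and had 5 and 526 UMIs, a log2 ratio of 7.31 (6.08 to 8.94), the largest of the span among genes seen in WT. It was spread over the clusters more evenly than Glp1r. Cluster 4 held 7.41% of its KO UMIs, and its KO level was 14.0 CPM in cluster 4, 13.8 CPM in cluster 7 and 21.1 CPM in cluster 22. Of 5063 KO neurons, 384 had a Glp1r UMI, 478 had one of AC165951.1 and 63 had both. Glp1r was found in 13.2% of the neurons with an AC165951.1 UMI and in 7.001% of those without, not matched for depth. In cluster 4 these shares were 33.3%, of 36 nuclei, and 28.0%. Without stated strand use, UMIs in the overlap cannot be assigned with certainty to either gene.

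**Figure D5:**
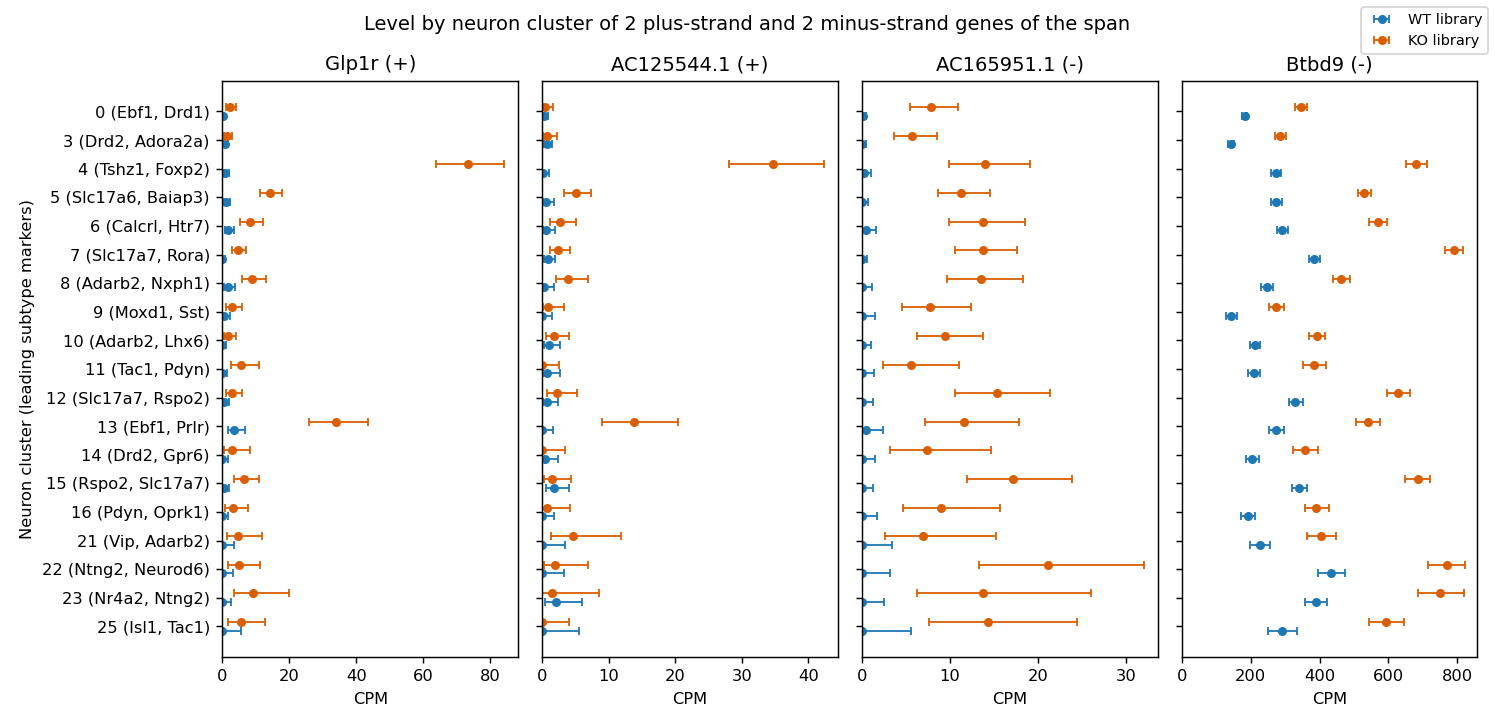
Level in CPM (x axes, linear, each with its own range) of the plus-strand genes Glp1r and AC125544.1 and the minus-strand genes AC165951.1 and Btbd9 in 19 neuron clusters (y axis) in both libraries, with exact 95% Poisson intervals. In KO, Glp1r and AC125544.1 peak in cluster 4 at 73.4 and 34.7 CPM and come next in cluster 13, while AC165951.1 and Btbd9 peak in excitatory clusters.

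The levels of the 4 genes were compared over 24 clusters, 19 of neurons and 5 of glia. Pearson's r of log2(CPM + 1) between Btbd9 and Glo1 was 0.01 in WT and -0.25 in KO, and between Btbd9 and Glp1r it was 0.00 and 0.56. All other pairs lay between -0.19 and 0.09. These are descriptions over clusters that share libraries and depth. In WT the patterns most like that of Btbd9 were 3110082I17Rik (r = 0.84), Acsl5, an acyl-CoA synthetase (0.83), and Ptpn1, a tyrosine phosphatase (0.83). Those most like Glo1 were Pnpla7, a lysophospholipase (0.84), Azin1, an antizyme inhibitor (0.84), and Gstm1, a glutathione transferase (0.84). For the genes too rare in WT the KO library was used. Dnah8 was most like Kif6 (0.89) and Kif21a (0.81), both kinesin genes, and 4930593A02Rik (0.78). These were the highest of 14336 genes. Dnah8 had only 140 KO UMIs over all nuclei, 32 of them in cluster 1, an oligodendrocyte cluster. Glp1r was most like AC125544.1 (0.77), Gm30371 (0.76) and Hap1 (0.74), which encodes a huntingtin partner. AC165951.1 was the gene most like Btbd9 in KO (0.86), a value looked up after the others had been seen.

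Genes that act with these 4 elsewhere in the genome were measured in neurons as well. Of 16 genes of methylglyoxal and glutathione metabolism, 14 had at least 100 UMIs. Of these, 10 were higher and 4 lower in KO, and 2 were at least 1.5-fold higher against a background of 4.36%. Their median log2 ratio was 0.14, beside 0.04 for all genes. In excitatory neurons alone 7 were higher and 7 lower, 1 past 1.5-fold each way, with a median of 0.00, and in inhibitory neurons 10 were higher and 4 lower, with a median of 0.19. Ldhd, a mitochondrial D-lactate dehydrogenase, had 3.54 CPM in WT and 6.27 CPM in KO, a log2 ratio of 0.83. Aldh9a1, an aldehyde dehydrogenase, had 7.36 and 11.3 CPM, a ratio of 0.62, and the glycolytic Gapdh had 0.31. The lowest were Slc7a11, the cystine transporter, at -0.30, Akr1b3, an aldose reductase, at -0.20 and Gsr, glutathione reductase, at -0.14.

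Of 23 genes of GLP-1 receptor signalling, 20 had enough UMIs, 8 of them higher and 12 lower, and none passed 1.5-fold. The median was -0.06. The highest were Arrb2, a beta-arrestin (0.36), Gnas, the Gs alpha subunit (0.30), and Adcy8 (0.25). The lowest were the adenylyl cyclases Adcy5 (-0.49) and Adcy9 (-0.28) and the G protein gene Gnal (-0.45). Gcg, which encodes the ligand's precursor, had 6 UMIs in WT neurons and 2 in KO neurons. All 19 genes of Cul3 ligases and iron handling had enough UMIs, 11 higher and 8 lower, none past 1.5-fold, with a median of 0.03, or -0.03 with TMM scaling. Slc40a1, the iron exporter (0.42, from 104 UMIs), Btbd3 (0.32) and Rbx1, the RING subunit (0.21), were highest. Fth1 and Ftl1, the ferritin chains, at -0.36 and -0.22, and Cand1 at -0.11 were lowest. Of 15 dynein genes in the files, 13 had enough UMIs, 9 higher and 4 lower, with a median of 0.15. None was past 1.5-fold higher, and by this rule Dnah6 was just short of 1.5-fold lower at -0.58, from 104 UMIs. Dnah7b (0.47), Dnah5 (0.42) and Dnah11 (0.40) were highest, and after Dnah6 the lowest were Dnah14 (-0.36) and Dnah2 (-0.16).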

How the data were processed

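The authors deposited raw UMI counts per gene and barcode, made with Cell Ranger 6.0.0 and mm10 per the submitters' processing notes; the annotation, intron and strand settings are not stated there. The files held 11060 WT and 8666 KO barcodes. Barcodes with under 500 genes (12 and 143), over 5% mitochondrial UMIs (259 and 428), or called as doublets by Scrublet (422 and 222, scanpy 1.11.5) were removed. Of 32285 genes, 32158 matched a symbol.

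Nuclei were clustered by the Leiden method (leidenalg 0.10.2, resolution 1.0) on 2000 variable genes, 30 components and 15 neighbours, leaving out genes within 1 Mb of the span. Clusters took a class from marker lists, by a score rule set after the clusters were seen. That left 31 clusters, 4 of them unnamed. Excitatory neurons numbered 1359 in WT and 906 in KO, inhibitory neurons 6132 and 3505, astrocytes 912 and 670, oligodendrocytes 600 and 1179, precursors 158 and 205, and microglia 106 and 230.

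UMIs were summed per class and library. Ratios are log2 of KO over WT with exact conditional binomial intervals, shares carry exact Clopper-Pearson intervals, and a count of 0 was set to 3 for bounds. Such bounds carry no counting interval, so the true ratio can lie below them. No p-value was computed. The interval script was tested on simulated data. The 4 genes, the marker and pathway lists and the rules were chosen with earlier results of these data known. Named genes were the 4, the 3 nearest protein-coding flanking genes with 100 UMIs on each side and flanking genes past a log2 ratio of 0.5, up to 3 highest and lowest of each pathway list, and the 3 most alike in level. Alternatives changed cell filters, doublets, resolution, classes, scaling (TMM in edgeR 4.0.16, median of ratios), cluster weights and depth.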

Additional observations from a re-analysis of the deposited data

How the results depend on the processing

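Over all nuclei and in the 6 classes, every alternative kept all 4 genes higher in KO wherever a ratio could be given. For the values over all nuclei, excitatory and inhibitory neurons, 132 alternatives stayed within the counting interval and 19 left it. The cause was not tested for those that rest on depth. For Btbd9 over all nuclei, TMM scaling gave 0.92, median-of-ratios scaling 0.91 and equal cluster weights 0.97. Those scalings gave 0.90 and 0.89 in excitatory neurons, and 0.97 and 0.96 in inhibitory neurons, where equal weights gave 0.99. Thinning to 1000 UMIs gave Btbd9 0.83 in excitatory and 1.18 in inhibitory neurons, Glo1 1.23 and Glp1r 3.67 in inhibitory neurons. Resolution 0.5 put Glp1r in inhibitory neurons at 5.10. Splitting nuclei at the median of 6915.5 UMIs, a choice made after the data were seen, gave 1.86 below and 1.54 above it for Glo1 over all nuclei, and 3.75 below it for Dnah8. For Btbd9 nuclei below it gave 0.80 in excitatory and 1.23 in inhibitory neurons, and those above it 0.98 in inhibitory neurons. Thinning reversed Glo1 in cluster 14 (-0.28) and cluster 23 (-0.78), from 8 and 4 WT UMIs. No paired analysis was possible because each genotype has 1 library. Without the barcodes found in both libraries the values over all nuclei were 1.01 for Btbd9, 1.66 for Glo1, 2.84 for Dnah8 and 3.76 for Glp1r. Depth limits Dnah8 and glial Glp1r, which rest on few UMIs.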

Other observations

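Groups too small or mixed to be compared held the 4 genes as well. Cluster 27, led by the cholinergic genes Slc5a7 and Chat, had 92 WT and 37 KO nuclei. It had the highest WT level of Glp1r of any neuron cluster, 10.2 CPM from 11 UMIs, against 28.5 CPM from 13 UMIs in KO. Of those 13 KO UMIs, 8 came from 1 nucleus, and 10.8% of the KO nuclei had any. Dnah8 had 5 and 6 UMIs there, and the 6 in KO came from 1 nucleus. Btbd9 stood at 213 and 357 CPM and Glo1 at 13.9 and 26.3 CPM in this cluster.

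Fibroblasts, with 18 WT and 129 KO nuclei, had 5 and 135 Btbd9 UMIs, 1 and 28 Glo1 UMIs and 0 and 7 Dnah8 UMIs. Mural cells, with 60 and 41 nuclei, had 17 and 13 Btbd9 UMIs and 1 and 6 Glo1 UMIs. Cluster 18, which carried both microglial and neuronal markers, had 245 CPM of Btbd9 in WT and 493 CPM in KO, and 11.9 and 30.05 CPM of Glo1.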
